A study of Mus musculus with 8 samples.

Results

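The RFX transcription factors and FOXJ1, regulators of ciliary and related genes, were followed in mouse germ cells in which *Mgat2* was deleted. The members are *Rfx1*, *Rfx2*, *Rfx3*, *Rfx4*, *Rfx5*, *Rfx7*, *Rfxap*, *Rfxank*, *Foxj1* and *Mcidas*. They were found by gene name and make up 10 of the 55357 genes quantified. Germ cells came from C57BL/6 males aged 15 days. There were 4 *Mgat2*[F/F] mice (control) and 4 *Mgat2*[F/F]:*Stra8*-iCre mice (cKO), each with 1 RNA-seq library of polyadenylated RNA. Both genotypes carry the floxed *Mgat2* alleles, and only the cKO mice carry the *Stra8*-iCre transgene, which is expressed in spermatogonia, so other cells of the testis keep *Mgat2*. Controls had no Cre, so an effect of the transgene itself and one of the deletion cannot be told apart. The comparison asks which genes differ in germ cells when *Mgat2*, which encodes the GlcNAc-transferase that makes biantennary complex N-glycans, is deleted.

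RFX proteins share a winged-helix domain that binds the X-box, a DNA element found in front of many genes of cilia and flagella. RFX2 and RFX3 are known as regulators of ciliary genes, RFX2 is required in the testis for spermatids to form flagella, and FOXJ1 is the forkhead factor that drives the programme of motile cilia, with MCIDAS acting above it in multiciliated cells. RFX5, RFXAP and RFXANK form a different complex, which binds the promoters of MHC class II genes.

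The libraries held 12584726 to 15907505 expected counts, so that the smallest signal taken as measurable, 3 counts, was worth 0.189 to 0.238 CPM (the counts of a gene scaled to the library's depth). This floor covers counting error only. *Mgat2* had mean levels of 56.4 ± 16.9 and 27.2 ± 10.8 CPM (control and cKO, SD, n = 4 each), with an adjusted p of 0.47 from edgeR and 0.0252 from DESeq2. The genotypes overlapped, since cKO replicates 1 and 3 (35.2 and 37.6 CPM) were above control replicate 2 (31.8 CPM). *Mgat2* shares 11.6% of its exon bases with *Rpl36al* on the opposite strand. The libraries were not stranded, so reads of both cannot be told apart there. All 4 germ cell markers and all 7 markers of spermatogonia were present. Of 6 spermatid markers, *Tnp2* and *Prm1* were at 0 in all 8 libraries. *Dbil5*, the round spermatid marker of the paper, averaged 3.81 CPM in control and 1.84 CPM in cKO, and *Tnp1* 0.055 and 0.194 CPM. Sertoli cell markers were also present in every library, with a summed level of 4374 to 5341 TPM (RSEM's level per transcript length, scaled to a common total) in control and 4423 to 5363 TPM in cKO. Most of this sum was *Clu*, which averaged 4162 TPM in control and 4348 TPM in cKO. The next highest of these markers, *Wt1*, averaged 227.3 and 229.9 TPM. The members therefore describe a germ cell fraction that also held Sertoli cell RNA, and how much of a member's RNA came from either was not tested. Control replicate 1 stood apart in the pachytene spermatocyte markers, whose summed level was 2096 TPM in it against 526.6 to 882.9 TPM in the other controls. In the cKO libraries this sum was 683.5 TPM in replicate 1 and 209.5 to 262.6 TPM in the others, so values for replicates 2 to 4 alone, a choice made after the data were seen, are given beside the results that replicate 1 bears on most.

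Of the 10 members, 9 were tested, having a TPM of 1 or more in some library, and *Mcidas* was not. *Rfx4* and *Foxj1* reached this level in all 4 control but in 3 cKO libraries. Across the 8 libraries, edgeR's quasi-likelihood test called 0 of the 9 members at an adjusted p of 0.05, where it called 8 of all 20187 genes (0.0396%). At an unadjusted p under 0.05 there were 3 members, *Rfx2*, *Rfx4* and *Rfx5*, all lower in cKO, against 8.9% of all genes. DESeq2 called 1 member, *Rfx4*, where it called 1.5% of all genes. *Rfx4* was also the member called by edgeR in replicates 2 to 4 alone, where 4.24% of all genes were called. The levels of the genotypes did not overlap for 1 member, again *Rfx4*, and for 5.5% of all genes.

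**Figure D1:**
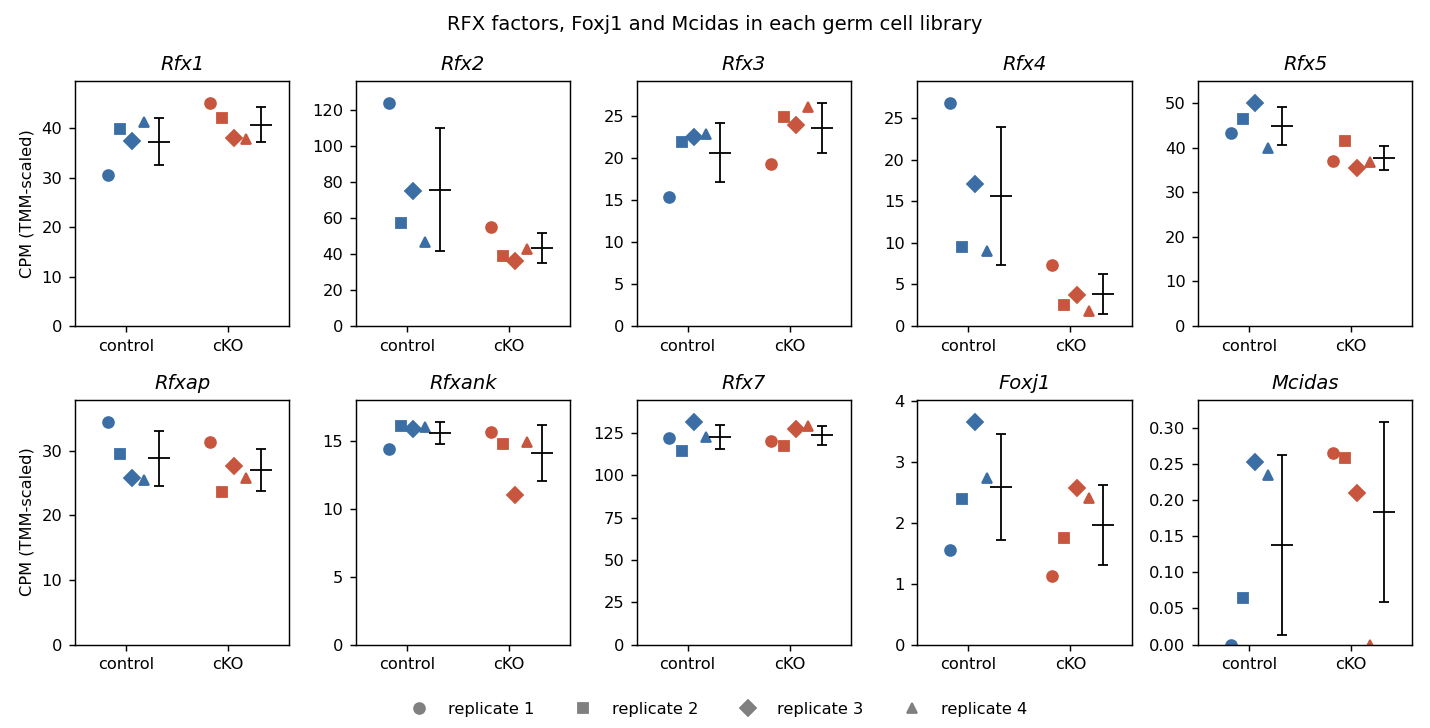
Level of each of the 10 members in each library, in CPM scaled by the TMM method (vertical axis, from 0, its range set for each gene), by genotype. Symbols mark the replicate number, and the horizontal bar with whiskers gives the mean ± SD of 4 libraries. All 4 cKO libraries sit below all 4 control libraries for *Rfx4*, and the genotypes overlap in the other panels.

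*Rfx4* (ENSMUSG00000020037, chromosome 10, 84591896 to 84742404, forward strand, GRCm39) encodes an RFX factor best known from the development of the brain, and its RNA is also found in testis. It was at 26.8, 9.53, 17.1 and 9.06 CPM in control replicates 1 to 4. In cKO replicates 1 to 4 it was at 7.30, 2.52, 3.70 and 1.84 CPM, from 26 to 110 counts in a library. The highest cKO library, replicate 1, was below the lowest control library, replicate 4. The means were 15.6 ± 8.32 and 3.84 ± 2.43 CPM (SD, n = 4), 4.07-fold lower in cKO. The log2 fold change was -2.02 (SE 0.52, edgeR adjusted p = 0.35), and an exact two-sided permutation test over the 70 assignments of the libraries gave p = 0.0286, the smallest it can give. The controls themselves spanned 9.06 to 26.8 CPM, and the adjusted p from edgeR did not pass 0.05. DESeq2 gave a log2 fold change of -2.03 and an adjusted p of 0.00144. In replicates 2 to 4 alone edgeR gave -2.15 on the log2 scale (adjusted p = 5.97e-05). When each library was left out in turn it stayed between -2.54 and -1.63, and the highest of these values was without control replicate 1. In bulk samples, fewer cells of a type and less RNA per cell cannot be told apart, and the pachytene markers, whose sums are given above, moved with *Rfx4* from library to library.

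*Rfx2* (ENSMUSG00000024206, chromosome 17, 57081835 to 57138118, reverse strand) is the RFX factor that spermatids need for the flagellum. Control replicates 1 to 4 were at 123.7, 57.25, 74.9 and 46.7 CPM, and cKO replicates 1 to 4 at 54.8, 39.0, 36.0 and 43.0 CPM. cKO replicate 1 was above control replicate 4, so the genotypes overlapped by this 1 library. The means were 75.6 ± 34.1 and 43.2 ± 8.24 CPM (SD, n = 4), with a log2 fold change of -0.81 (SE 0.31, edgeR adjusted p = 0.53). The exact two-sided permutation test gave p = 0.0571 and DESeq2 an adjusted p of 0.0778. Control replicate 1 carried much of the difference. Without it edgeR gave -0.46 on the log2 scale (adjusted p = 0.676), and in replicates 2 to 4 alone -0.60 (adjusted p = 0.16).

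*Rfx4* was also set against other members within each library. The ratio of *Rfx4* to *Rfx2* TPM within a library, on the log2 scale, was -2.24, -2.65, -2.04 and -2.35 in control and -2.96, -3.99, -3.22 and -4.53 in cKO replicates 1 to 4. Every cKO ratio was below every control ratio, and the mean differed by -1.36. Of 4 such ratios compared after the data were seen, those of *Rfx4* to *Rfx2* and *Rfx4* to *Rfx3* did not overlap (each p = 0.0286 by an exact two-sided permutation test, 0.0571 after Benjamini-Hochberg adjustment over the 4 ratios). *Rfx4* was already the only member whose levels did not overlap between the genotypes, so these ratios are not separate support for its difference. The ratio of *Rfx4* to *Rfx3* differed by -2.28, from 0.35 ± 0.88 in control to -1.93 ± 1.06 in cKO (log2, SD, n = 4). The ratios of *Rfx2* to *Rfx3* and *Rfx4* to *Foxj1* differed by -0.92 (p = 0.0857, exact permutation) and -1.68 (p = 0.114, exact permutation), and both overlapped between the genotypes. Neither *Rfx4* nor *Rfx2* changed its count per TPM much between libraries, with a 1.04-fold and a 1.09-fold range, so CPM and TPM ranked these libraries alike.

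*Rfx3* (ENSMUSG00000040929, chromosome 19, 27739121 to 27988566, reverse strand), which regulates genes of both motile and primary cilia, was at 15.4, 21.9, 22.5 and 22.8 CPM in control and 19.3, 24.8, 23.9 and 26.1 CPM in cKO replicates 1 to 4. The genotypes overlapped, and the lowest library of each was replicate 1. The log2 fold change was 0.19 (SE 0.15, edgeR adjusted p = 0.726), with 0.07 without control replicate 1 and 0.16 in replicates 2 to 4 alone. *Rfx1* (ENSMUSG00000031706, chromosome 8, 84793460 to 84823942, forward strand), a broadly expressed member that binds the same element, averaged 37.3 ± 4.82 CPM in control and 40.8 ± 3.47 CPM in cKO (SD, n = 4). Its control range, 30.5 to 41.3 CPM, overlapped the cKO range of 37.9 to 45.1 CPM. The log2 fold change was 0.13 (SE 0.11, edgeR adjusted p = 0.76) and turned to -0.01 in replicates 2 to 4 alone, so its sign depended on replicate 1. *Rfx7* (ENSMUSG00000037674, chromosome 9, 72439216 to 72530289, forward strand), which is known for other targets than ciliary genes, averaged 122.8 ± 6.99 CPM in control and 123.6 ± 5.69 CPM in cKO (SD, n = 4). Its log2 fold change was 0.01 (SE 0.07, edgeR adjusted p = 0.985).

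**Figure D2:**
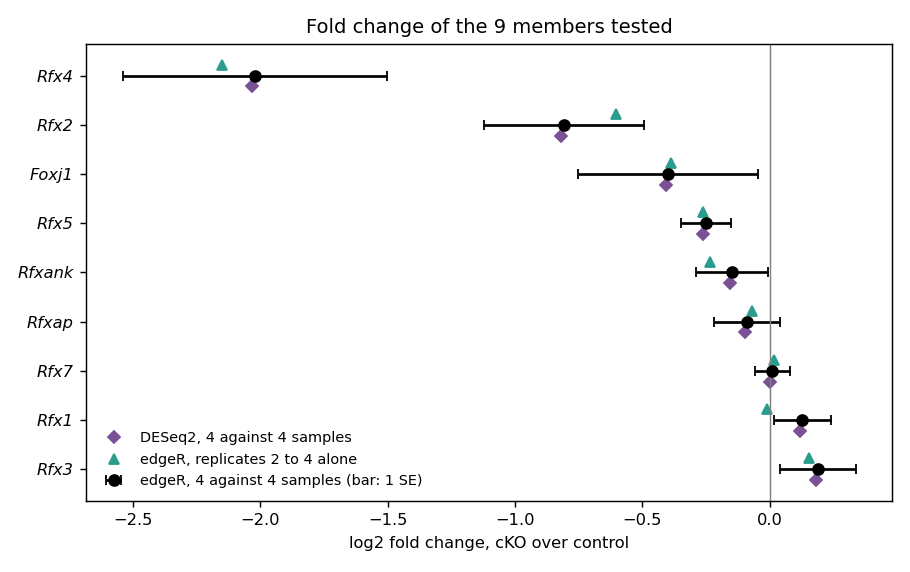
Log2 fold change of the 9 members tested, cKO over control (horizontal axis). Black points with bars give edgeR's estimate over 4 against 4 libraries ± 1 SE, diamonds DESeq2, and triangles edgeR in replicates 2 to 4 alone. *Rfx4* lies at -2.02, -2.03 and -2.15, *Rfx2* at -0.81, -0.82 and -0.60, and the other 7 members nearer to 0 than *Rfx2*.

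The promoters of *Rfx4* and *Rfx2* are shown beside those of *Rfx3* and *Rfx1*, since the first pair had the lowest fold changes of the members and the second pair the highest. RefSeq promoter windows of 300 bases, 250 before and 50 after a transcription start, matched 8 of the 10 members by symbol and gave 9 windows, since *Rfx4* has 2 starts that lie 82100 bases apart. *Foxj1* and *Rfxap* were not matched. The windows come from a table on GRCm38.p6, and each was placed on GRCm39 by an exact match that occurred once on its chromosome. They are written 5′ to 3′ on the strand of the gene, and capitals mark the X-box half-site GTTGCC and the CCAAT box core.
*Rfx4*, upstream start, chr10:84591662-84591961: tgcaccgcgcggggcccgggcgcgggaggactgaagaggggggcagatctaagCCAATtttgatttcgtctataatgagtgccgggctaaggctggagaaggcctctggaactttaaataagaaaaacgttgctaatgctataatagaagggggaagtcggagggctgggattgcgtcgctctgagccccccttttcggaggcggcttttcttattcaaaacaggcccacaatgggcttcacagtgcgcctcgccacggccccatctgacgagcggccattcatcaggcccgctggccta
*Rfx4*, internal start, chr10:84673762-84674061: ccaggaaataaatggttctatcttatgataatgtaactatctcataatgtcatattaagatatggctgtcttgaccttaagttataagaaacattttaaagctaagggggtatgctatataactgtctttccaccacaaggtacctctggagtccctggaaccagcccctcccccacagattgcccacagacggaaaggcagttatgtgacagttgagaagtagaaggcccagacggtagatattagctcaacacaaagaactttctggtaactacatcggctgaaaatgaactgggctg
*Rfx2*, chr17:57137959-57138258: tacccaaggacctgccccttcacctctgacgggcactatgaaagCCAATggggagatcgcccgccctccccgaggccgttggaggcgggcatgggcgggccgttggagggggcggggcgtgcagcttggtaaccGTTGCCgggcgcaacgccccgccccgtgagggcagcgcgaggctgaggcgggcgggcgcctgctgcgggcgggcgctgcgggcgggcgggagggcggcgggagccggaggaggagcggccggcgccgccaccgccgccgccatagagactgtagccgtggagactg
*Rfx3*, chr19:27988517-27988816: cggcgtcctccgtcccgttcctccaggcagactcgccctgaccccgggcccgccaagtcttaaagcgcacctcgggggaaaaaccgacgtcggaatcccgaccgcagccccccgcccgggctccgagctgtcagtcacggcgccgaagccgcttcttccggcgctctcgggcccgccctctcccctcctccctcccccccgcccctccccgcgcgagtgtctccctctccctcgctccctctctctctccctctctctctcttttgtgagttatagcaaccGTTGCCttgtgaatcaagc
*Rfx1*, chr8:84793215-84793514: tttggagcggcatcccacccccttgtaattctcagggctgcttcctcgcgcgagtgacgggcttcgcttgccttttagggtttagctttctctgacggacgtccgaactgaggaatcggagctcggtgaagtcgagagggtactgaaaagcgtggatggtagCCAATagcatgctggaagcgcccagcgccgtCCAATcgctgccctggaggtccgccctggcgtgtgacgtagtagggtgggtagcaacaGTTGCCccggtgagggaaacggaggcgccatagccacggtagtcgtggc

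The half-site, searched on both strands, stood once each in the windows of *Rfx1*, *Rfx2*, *Rfx3* and *Mcidas*, and 12.5% of all 32851 promoter windows held it. It began at position 135 of the *Rfx2* window, and at positions 252 and 282, just after the start, in *Rfx1* and *Rfx3*. Both *Rfx4* windows were without it. A paired X-box, GTTNCC and GGNAAC with 1 to 3 bases between them, stood in 0 of the 9 windows and in 0.776% of all windows, and the forkhead core GTAAACA in 0 of the 9 and in 3.65% of all. CCAAT, which 37.4% of all windows held, stood in the windows of *Rfx1*, *Rfx2*, *Rfx5* and *Rfxank* and in that of the upstream *Rfx4* start. These letters describe the windows alone, and binding was not measured. Of the 3 members whose unadjusted p was under 0.05, the windows of *Rfx4* and *Rfx5* lacked the half-site and that of *Rfx2* held it. The deposited values are sums over a gene, so the 2 starts of *Rfx4* could not be told apart.

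The complex of RFX5, RFXAP and RFXANK was described as a group of its own. *Rfx5* (ENSMUSG00000005774, chromosome 3, 94861381 to 94869225, forward strand), its DNA-binding subunit, was at 43.3, 46.3, 49.9 and 39.9 CPM in control and 37.0, 41.5, 35.5 and 36.7 CPM in cKO replicates 1 to 4. Only cKO replicate 2 reached into the control range. The log2 fold change was -0.25 (SE 0.10, edgeR adjusted p = 0.488), with p = 0.0571 in the exact two-sided permutation test and an adjusted p of 0.25 from DESeq2. Of its exon bases, 31.3% are shared with *B230398E01Rik*, a long non-coding RNA gene on the opposite strand, and the libraries were not stranded, so reads of both cannot be told apart there.

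*Rfxap* (ENSMUSG00000036615, chromosome 3, 54710536 to 54715248, reverse strand), which encodes an accessory subunit of the complex, averaged 28.8 ± 4.21 CPM in control and 27.1 ± 3.26 CPM in cKO (SD, n = 4), a log2 fold change of -0.09 (SE 0.13, edgeR adjusted p = 0.871). It turned to 0.01 without control replicate 1 and was -0.07 in replicates 2 to 4 alone. In TPM the order of the means was the opposite, 52.6 ± 13.1 in control and 59.7 ± 16.4 in cKO. The number of counts behind 1 TPM of *Rfxap* ranged 1.99-fold between libraries, the widest range of any member with counts over the floor, and this number follows the transcript length that RSEM assigned. *Rfxank* (ENSMUSG00000036120, chromosome 8, 70583442 to 70592347, reverse strand), the ankyrin-repeat subunit, averaged 15.6 ± 0.80 CPM in control and 14.1 ± 2.06 CPM in cKO (SD, n = 4), a log2 fold change of -0.15 (SE 0.14, edgeR adjusted p = 0.791). It shares 31.4% of its exon bases with *Nr2c2ap* on the opposite strand. The genotypes overlapped for both subunits.

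Of 11 listed MHC class II genes and activators of them, 7 were tested and edgeR called 0, with 0 at an unadjusted p under 0.05, and DESeq2 also called 0. Their median log2 fold change was -0.34, against 0.007 over all genes, and it was -0.09 without control replicate 2 and -0.22 without cKO replicate 1. *H2-Ab1*, which encodes a class II beta chain, was at 6.90 CPM in control and 5.44 CPM in cKO (log2 fold change -0.34, adjusted p = 0.707 from edgeR). *Nlrc5*, which activates MHC class I genes, was at 1.71 and 0.729 CPM (log2 fold change -1.23, adjusted p = 0.562 from edgeR). In TPM *Nlrc5* was nearly level, at 0.67 ± 0.71 in control and 0.64 ± 0.34 in cKO (SD, n = 4), so its CPM difference was not seen there. *Ciita*, the class II activator, had 3 to 16 counts in a library and was not tested. The macrophage and leukocyte markers summed to 20.6 to 43.1 TPM in control and 34.4 to 42.3 TPM in cKO, and their part in these levels was not tested.

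*Foxj1* (ENSMUSG00000034227, chromosome 11, 116221530 to 116226225, reverse strand) was near the lower end of what the libraries could measure. It had 23, 37, 58 and 35 counts in control and 17, 27, 37 and 34 counts in cKO replicates 1 to 4, or 1.56, 2.40, 3.66 and 2.73 CPM against 1.13, 1.75, 2.58 and 2.41 CPM. The genotypes overlapped, and replicate 1 was the lowest library of each. The log2 fold change was -0.40 (SE 0.35, edgeR adjusted p = 0.762, p = 0.343 in the exact two-sided permutation test). It moved to -0.18 without control replicate 3 and to -0.21 without cKO replicate 1, and was -0.58 without control replicate 1. *Mcidas* (ENSMUSG00000074651, chromosome 13, 113130328 to 113136928, forward strand) was barely detected, with 19 counts in all. Control replicates 1 to 4 held 0, 1, 4 and 3 of them and cKO replicates 1 to 4 held 4, 4, 3 and 0, and 5 of the 8 libraries were at or under the floor. A difference in *Mcidas* was not detectable at this depth.

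Of 11 other listed regulators of multiciliated cells, 8 were tested, edgeR called 0, with 0 at an unadjusted p under 0.05, DESeq2 called 0, and the median log2 fold change was -0.07. *Gmnc*, which acts beside *Mcidas*, had 16 counts in all 8 libraries together and *Trp73*, which encodes the factor p73, had 33. *Deup1*, known from the mass production of centrioles, was at 2.07 CPM in control and 1.36 CPM in cKO (log2 fold change -0.60, adjusted p = 0.642 from edgeR). *Ccno*, which encodes a cyclin of multiciliated cells, was at 4.19 and 5.03 CPM (log2 fold change 0.27, adjusted p = 0.754 from edgeR). *E2f5* was at 31.4 and 37.5 CPM (log2 fold change 0.26, adjusted p = 0.562 from edgeR). *Cdc20b*, which lies beside *Ccno* and *Mcidas* in the genome, was at 0.805 and 0.457 CPM (log2 fold change -0.80, adjusted p = 0.716 from edgeR). *Tfdp1* and *Gmnn*, at 126.1 and 32.4 CPM in control, had log2 fold changes of -0.13 and -0.01 (adjusted p = 0.782 and 0.997 from edgeR).

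The order of the members' levels was read per transcript length, in TPM. In control the means were 52.6 for *Rfxap*, 39.7 for *Rfx2*, 37.0 for *Rfx7*, 27.2 for *Rfx5*, 16.6 for *Rfx1*, 9.97 for *Rfxank*, 8.18 for *Rfx4*, 5.91 for *Rfx3*, 1.74 for *Foxj1* and 0.105 for *Mcidas*. Neighbours in this order overlapped in their range over libraries from *Rfxap* down to *Rfx5* and from *Rfxank* down to *Rfx3*, and the other neighbours did not. In cKO, *Rfx4* stood below *Rfx3*, at 1.97 ± 1.21 against 6.68 ± 1.12 TPM (SD, n = 4), with no overlap, while in control the 2 genes overlapped at 8.18 ± 4.12 and 5.91 ± 0.83 TPM. *Rfx2* stood below *Rfx7* in cKO without overlap, at 22.5 ± 4.68 against 37.4 ± 3.99 TPM, and overlapped it in control. *Rfx2* was at 64.2 TPM in control replicate 1 and at 24.9 to 37.9 TPM in the other controls.

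**Figure D3:**
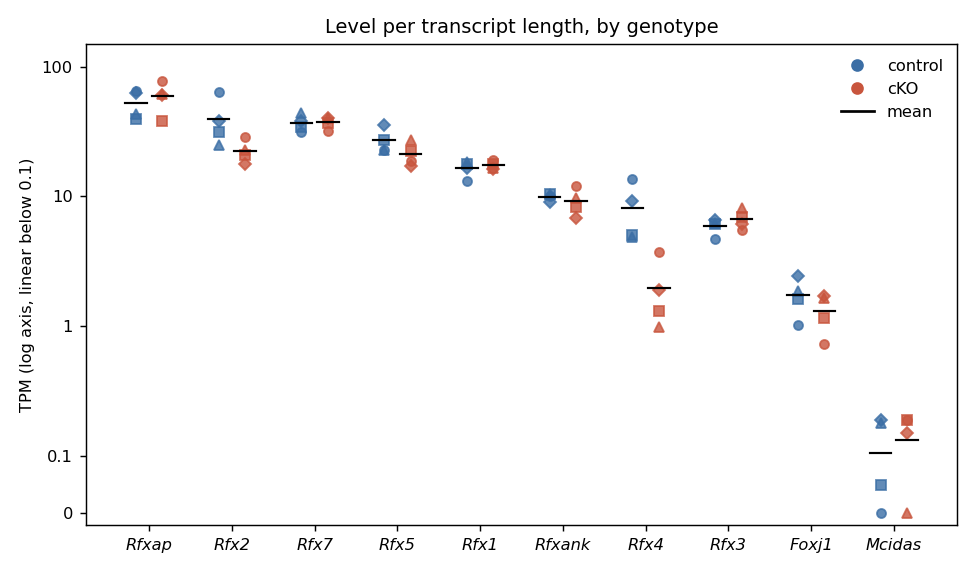
TPM of each member in each library (vertical axis, logarithmic above 0.1 and linear below it), ordered by the control mean, for control and cKO side by side. Symbols mark replicates as in the plot of CPM by library and the short line is the mean of 4 libraries. *Rfx4* crosses from above *Rfx3* in control (8.18 against 5.91 TPM) to below it in cKO (1.97 against 6.68 TPM).

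*Rfx8*, an RFX gene outside the 10 members, came from a list of 6 relatives, the other RFX genes and forkhead genes of the FOXJ and FOXK types, of which 5 were tested. It was at 13.2, 5.38, 8.09 and 4.68 CPM in control and 5.38, 2.13, 2.44 and 1.42 CPM in cKO replicates 1 to 4. cKO replicate 1 reached into the control range, and the others were below it. The log2 fold change was -1.46 (SE 0.45, edgeR adjusted p = 0.418), with an adjusted p of 0.0526 from DESeq2, and of 0.00019 from edgeR in replicates 2 to 4 alone, where the log2 fold change was -1.60. *Foxk1*, *Foxk2* and *Foxj3* had log2 fold changes of -0.15, -0.13 and 0.05 (adjusted p = 0.726, 0.678 and 0.848 from edgeR), and the median of the 5 relatives was -0.13, or -0.04 without control replicate 1 and in replicates 2 to 4 alone.

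Library by library, *Rfx4*, *Rfx8* and *Rfx2* were high and low in the same samples. Pearson's r of log2 CPM over the 8 libraries was 0.99 between *Rfx4* and *Rfx8*, 0.886 between *Rfx4* and *Rfx2*, and 0.905 between *Rfx2* and *Rfx8*. *Rfx3* ran the other way, with an r of -0.861 to *Rfx2* and -0.80 to *Rfx4*, and *Foxj1* had an r of 0.039 to *Rfx4*. These values are a description over libraries that share depth, genotype and the makeup of the germ cell fraction. Among 15285 genes with a mean of at least 1 CPM, the 5 most like *Rfx2* were *Ift122* (r = 0.998), *Mycbpap*, *Icmt*, *Fhad1* and *Rab11fip2* (r from 0.993 down to 0.99). The 5 most like *Rfx4* were *Cfap44* (r = 0.995), *1700006A11Rik*, *Gm45861*, *4930444F02Rik* and *1700097M23Rik* (r at least 0.993). For *Rfx3* they were *Lbp* (r = 0.991), *Smarcad1*, *Cyb5rl*, *Cobll1* and *Sparcl1*, and for *Foxj1* *Sharpin* (r = 0.96), *Tm7sf2*, *Ankrd39*, *Gm41442* and *Clasrp*. These genes were picked over both genotypes together, so the direction of their genotype difference follows from the choice.

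The level of *Rfx4* moved with the pachytene spermatocyte markers from library to library. For *Rfx3* and *Foxj1*, control replicate 1, the highest library in these markers, was the lowest control. The 7 pachytene spermatocyte markers had a median log2 fold change of -1.72, and edgeR called 0. DESeq2 called 1 of them, *Piwil1* (1.5% of all genes), the 1 marker that did not overlap between the genotypes (5.5% of all genes). Relative to the mean of the controls, on the log2 scale, *Rfx4* TPM lay at 0.73, -0.69, 0.17 and -0.75 in control and -1.15, -2.64, -2.11 and -3.06 in cKO replicates 1 to 4. The summed pachytene markers lay at 1.01, -0.68, -0.23 and -0.98 in control and -0.60, -2.10, -1.98 and -2.31 in cKO, so both were highest in control replicate 1 and, among the cKO libraries, in replicate 1. cKO replicate 1 had 683.5 TPM of the pachytene markers, within the range of control replicates 2 to 4. It had 3.70 TPM of *Rfx4*, against 4.88 to 9.21 TPM in those 3 controls. This is 1 library, and nothing was read from it about the cause of the difference in *Rfx4*. Markers of spermatogonia were higher in cKO for 7 of 7 genes, where 10364 of all 20187 genes had a higher estimate. Their median log2 fold change was 0.21, and edgeR and DESeq2 called 0 of them. The 7 markers of early spermatocytes, the stage between, had a median of 0.095, with 4 higher and 3 lower in cKO. Those of Sertoli cells had a median of 0.05. The part of these shifts in the members' levels was not tested.

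**Figure D4:**
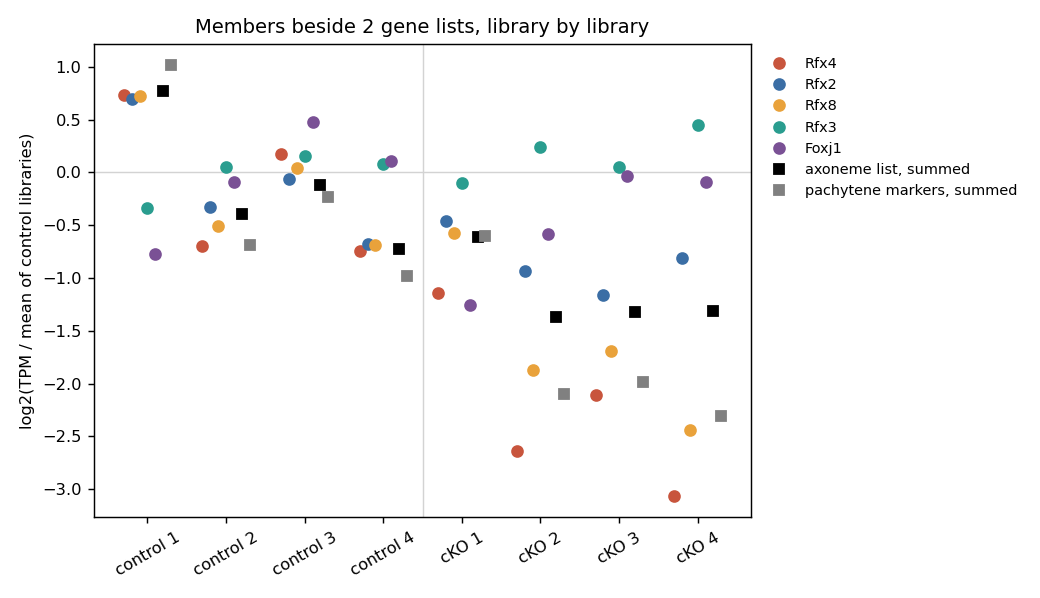
Level in each library as log2 of TPM over the mean of the 4 control libraries (vertical axis) for *Rfx4*, *Rfx2*, *Rfx8*, *Rfx3* and *Foxj1* (circles), and for the summed axoneme list and the summed pachytene markers (squares). Control replicate 1 is the highest library for *Rfx4* (0.73), *Rfx2* (0.69) and *Rfx8* (0.72) and for both sums (0.78 and 1.01), and the lowest control for *Rfx3* (-0.33) and *Foxj1* (-0.77).

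Lists of genes of cilia and flagella, groups in which RFX factors and FOXJ1 are known to act, were read beside the members. Whether each listed gene is a target of these factors was not tested. Of 87 listed genes of the motile axoneme, 86 were matched by name and 80 were tested. Of these 80, 78 had a lower estimate in cKO (48.6% of all genes), with a median log2 fold change of -1.32. The median was -0.73 without control replicate 1 and -1.14 in replicates 2 to 4 alone. EdgeR called 0 of them and put 43 at an unadjusted p under 0.05, all lower, where the share of all genes that were lower at that p was 6.28%. DESeq2 called 15 lower (1.41% of all genes) and edgeR in replicates 2 to 4 alone 44 lower (3.78% of all genes), and for 17 every cKO library was below every control library (3.03% of all genes). *Cfap58* was at 2.51 and 0.184 CPM in control and cKO (log2 fold change -3.70, adjusted p = 0.0243 from DESeq2), *Cfap221* at 3.52 and 0.312 CPM (log2 fold change -3.44, adjusted p = 0.0105 from DESeq2), and *Cfap44*, the gene most like *Rfx4*, at 12.6 and 2.05 CPM (log2 fold change -2.61, adjusted p = 0.0479 from DESeq2). Their adjusted p from edgeR were 0.418, 0.398 and 0.436. The cKO libraries ran from 0 to 0.598 CPM for *Cfap58*, whose cKO mean was under the floor of 3 counts, and from 0 to 0.730 CPM for *Cfap221*, so the size of these fold changes is uncertain. *Cfap44* differed less in TPM than in CPM, at 3.91 ± 3.19 TPM in control and 1.365 ± 1.33 TPM in cKO (SD, n = 4). The size of its fold change is therefore uncertain too. *Dnah6*, an inner arm dynein heavy chain, was at 25.7 and 4.19 CPM (log2 fold change -2.61, adjusted p = 0.222 from DESeq2). *Rsph1* and *Rsph3a* of the radial spoke were the most abundant, at 342.5 and 172.2 TPM in control and 160.8 and 78.4 TPM in cKO (adjusted p = 0.125 and 0.316 from DESeq2).

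Intraflagellar transport and BBSome genes, the other group, some of which RFX factors are known to bind, lay between the axoneme genes and all genes. All 35 were tested, 32 had a lower estimate in cKO (48.6% of all genes), and the median log2 fold change was -0.30. EdgeR called 0, with 17 lower at an unadjusted p under 0.05 (6.28% of all genes). DESeq2 called 6 lower (1.41% of all genes), and edgeR in replicates 2 to 4 alone called 8 lower (3.78% of all genes). For 4, every cKO library was below every control library (3.03% of all genes). *Ift172*, a peripheral subunit of the IFT-B complex, was at 128.0 CPM in control and 68.9 CPM in cKO (log2 fold change -0.90, adjusted p = 0.0222 from DESeq2 and 0.47 from edgeR). *Ttc30a1* and *Ttc21b*, of the IFT-B and IFT-A complexes, had log2 fold changes of -1.02 and -0.71 (adjusted p = 0.0335 and 0.0447 from DESeq2), and *Ift140*, of IFT-A, -0.90 (adjusted p = 0.285 from DESeq2). *Ift122*, of IFT-A and the gene most like *Rfx2*, was at 144.1 and 108.9 CPM (log2 fold change -0.40, adjusted p = 0.487 from edgeR). *Ift20* and *Ift43*, the most abundant in TPM, had log2 fold changes of 0.04 and -0.22 (adjusted p = 0.957 and 0.712 from edgeR).

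**Figure D5:**
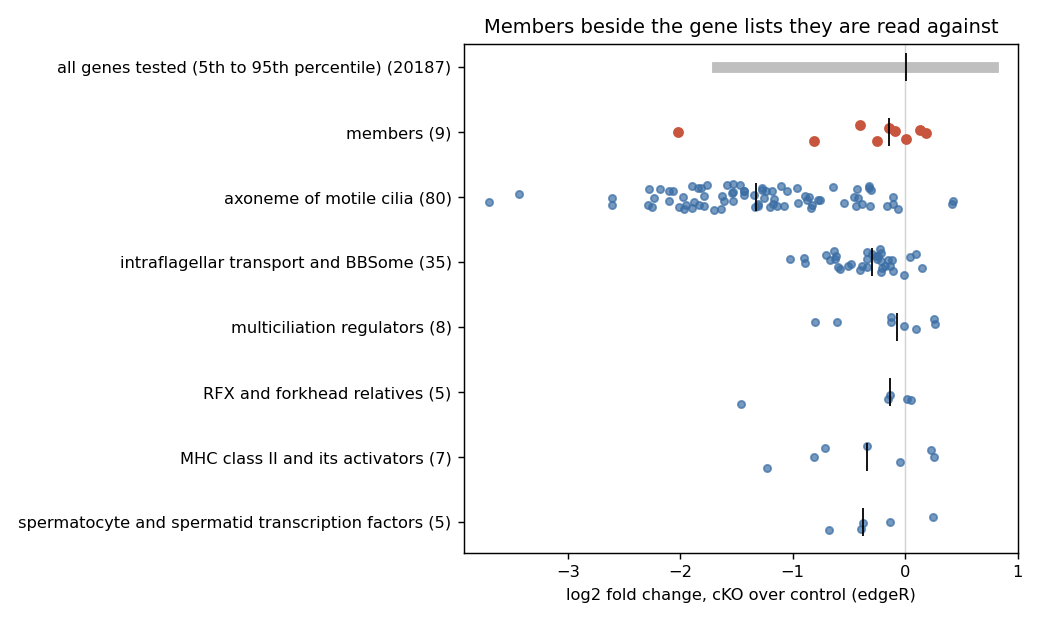
Log2 fold change, cKO over control, from edgeR (horizontal axis) for each tested gene of the members and of 6 gene lists, with the number tested in parentheses. Vertical ticks are medians and the grey bar spans the 5th to 95th percentile of all 20187 genes, -1.67 to 0.78. The axoneme list is centred at -1.32 and the transport list at -0.30, and 8 of the 9 members lie to the right of the axoneme median while *Rfx4* lies to its left.

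Transcription regulators of meiotic and later germ cells, a list of 5, were set beside the members. *Tcfl5*, which acts in pachytene spermatocytes, was at 128.4 CPM in control and 80.2 CPM in cKO (log2 fold change -0.68, adjusted p = 0.633 from edgeR and 0.00484 in replicates 2 to 4 alone). *Sox30* and *Crem*, both needed in spermatids, had log2 fold changes of -0.39 and -0.38 (adjusted p = 0.443 and 0.553 from edgeR). *Taf7l*, which encodes a TFIID subunit of germ cells, was at 175.1 CPM in control and 207.4 CPM in cKO with no overlap between the genotypes, where 2.47% of all genes were higher in every cKO library (log2 fold change 0.24, adjusted p = 0.426 from edgeR). The list's median was -0.38, or -0.23 without control replicate 1 and -0.33 in replicates 2 to 4 alone, and edgeR and DESeq2 called 0 of it.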

How the data were processed

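RNA of germ cells from 8 mice was sequenced from non-stranded, polyadenylated libraries. Per the labels and the submitters' processing notes, the authors aligned reads to mm39 with STAR 2.7.9a and estimated genes with RSEM 1.3.3. They deposited RSEM expected counts, not normalized between samples, and TPM values, scaled within each library for transcript length and depth. Expected counts were rounded, since 15.2% of those above 0 were not whole. The 20187 genes whose TPM reached 1 in any library were tested with edgeR 4.0.16 (TMM, robust quasi-likelihood F-test). Genotype was the single term, p-values were adjusted by Benjamini-Hochberg over these genes, and the threshold was 0.05. CPM are scaled by TMM. Single levels were compared with exact two-sided permutation tests (numpy 2.4.6), and scipy 1.17.1 adjusted the p-values of the ratios. DESeq2 1.42.0 and limma 3.58.1 were alternatives, run in R 4.3.3, and the code was checked on simulated counts. Separate mice made the libraries. Positions are from GENCODE on GRCm39.

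Members and gene lists were chosen with earlier results of these data known. Named genes are the members, *Mgat2*, up to 4 tested genes of a list with the largest fold change and up to 2 with the highest TPM, and the 5 genes most correlated with *Rfx2*, *Rfx3*, *Rfx4* and *Foxj1*. *Gmnc*, *Trp73* and *Ciita* were named outside this rule after their values were seen. Marker genes are named where their group is described.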

Additional observations from a re-analysis of the deposited data

Results flagged for a closer look

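Of 20 groups of 4 libraries examined for a library far from the others, which chance alone flags in about 1 of 20, 2 were picked out, both low in control replicate 1. *Rfx3* was at 15.4 CPM in it and at 21.9 to 22.8 CPM in the other controls. *Rfxank* was at 14.4 CPM in it and at 15.9 to 16.1 CPM in the others. The same library was the highest in *Rfx4*, *Rfx2* and the pachytene markers.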

How the results depend on the processing

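The number of members called was 1 with DESeq2, with the replicate block and in replicates 2 to 4 alone, and 0 in every other setting, each library left out included. Genes called over the whole table were 18 with upper-quartile normalization, 17 with library totals, 35 without a filter, 0 with filterByExpr, limma-voom or a fit that was not robust, 302 with DESeq2, 855 in replicates 2 to 4 alone, and 0 to 32 with 1 library left out. Axoneme genes called were 1 with upper-quartile normalization or library totals, 15 with DESeq2, 44 in replicates 2 to 4 alone and 0 to 2 with 1 library left out. Transport genes called were 1 without a filter, 6 with DESeq2, 8 in replicates 2 to 4 alone and 0 to 1 with 1 library left out. With the replicate block 1464 genes, 58 axoneme genes, 16 transport genes and 4 of the 5 germ cell regulators were called, and *Rfx4* had an adjusted p of 1.22e-09 from edgeR. Deviations of same-numbered libraries correlated at 0.475, 0.111, 0.029 and 0.16 in replicates 1 to 4, a mean of 0.194. The mean over the 12 pairs of unlike number was -0.06, and the highest of those pairs was at 0.162, so only replicate 1 stood above them. The labels give both genotypes the numbers 1 to 4 but no shared litter or day, so the numbers were not taken to pair the mice.

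The direction of *Rfx4*, *Rfx2*, *Rfx5*, *Rfxank*, *Rfx3* and *Foxj1* held in all settings run. *Rfx1* turned to -0.009 in replicates 2 to 4 alone. With 1 library left out *Rfxap* ran from -0.167 to 0.01, the last without control replicate 1, and *Rfx7* from -0.022 to 0.045, below 0 without control replicate 2, cKO replicate 3 or cKO replicate 4. As log2 ratios of mean levels, *Rfxap* was 0.182 in TPM and ran from -0.166 to 0.009, *Rfx7* from -0.022 to 0.045, *Rfx2* from -0.981 to -0.465 and *Rfx4* from -2.539 to -1.631 with 1 library left out. In *Rfx4* the exact permutation p was then 0.0571 without control replicate 1 and 0.0857 without any 1 cKO library, and in *Rfx2* 0.0286 without control replicate 4. The cause of these shifts was not tested. *Mcidas* was at or under 3 counts in 5 of 8 libraries. Without a filter *Mcidas* had a log2 fold change of 0.41 (adjusted p = 0.95 from edgeR).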
